A study of Mus musculus with 16 samples.

Results

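B cells of the liver-draining lymph node (LN) were chosen by measured transcripts in 3 single-cell libraries. A barcode was kept as a cell with at least 1000 RNA unique molecular identifiers (UMIs, each standing for 1 captured transcript), at least 500 genes and at most 10% mitochondrial UMIs. It was taken as a B cell if it held at least 1 UMI each of Cd79a, a signalling chain of the B cell receptor, and Ms4a1, which encodes CD20, no UMI of Cd3e, Cd3g, Fscn1, Siglech or Mki67, and fewer than 10 UMIs of Jchain. Those limits were meant to lower the number of doublets with T cells and dendritic cells and to leave out cycling cells and plasma cells, so neither proliferation nor antibody secretion can be judged in what remains. The rule found 5969 B cells among 19543 LN cells, and among 53595 cells in all 8 matrices of the series.

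The study followed murine cholangitis in mice fed DDC (diethoxycarbonyl-dihydrocollidine), a xenobiotic that injures bile ducts, at 0.1% of the chow. The LN libraries came from C57BL/6J males of 6 to 12 weeks, with 1 library from mice without DDC (D0), 1 from early DDC feeding (titled D5, described as D6) and 1 after 19 days (D19). Hepatoduodenal and celiac nodes were pooled, digested and sorted into gates for live singlets, CD11c-negative and CD11c-positive CD45+ cells, Pdpn+ cells and cells with neither CD45 nor Pdpn, which were then mixed in equal parts with 11 antibody tags (CITE-seq). With 1 library per time point no difference could be tested, so that intervals below are 95% intervals of counting error alone, time point and library cannot be told apart, and p-values are not given.

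Naive B cells leave the bone marrow as transitional cells and mature into follicular B cells, which recirculate between LNs through CCR7 and settle in follicles along CXCL13. On the way they gain surface IgD, made from the same transcript as IgM by alternative splicing, together with CD21 (Cr2, a complement receptor) and CD23 (Fcer2a, a low-affinity IgE receptor). Marginal zone and B1 cells, germinal centre cells and switched memory cells carry less IgD or none. Hspa1a and Hspa1b encode the inducible HSP70 chaperones, which are transcribed within minutes of heat or other stress to proteins.

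Of the cells passing the filters, 1775 of 6542 were B cells at D0, 2807 of 6248 at D5 and 1387 of 6753 at D19. These are 27.1% (26.1 to 28.2), 44.9% (43.7 to 46.2) and 20.5% (19.6 to 21.5). Because gates were mixed in equal parts, the sort can set these shares and they do not give the makeup of the node. Depth differed, with a median of 3343 UMIs per B cell at D0, 3868 at D5 and 2125 at D19, and so did the median mitochondrial share, at 2.43%, 3.81% and 4.34%. Levels are therefore given as CPM (UMIs of a gene per 1000000 RNA UMIs, summed over the B cells of a library). Shares of cells are given after thinning each cell to 1000 UMIs where so stated. Pairs of libraries shared between 9 and 12 cell barcodes.

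The label held against markers that the rule did not use. Cd79b, the partner of Cd79a, was detected in 98.3%, 97.8% and 88.8% of the B cells at D0, D5 and D19 before thinning, and Pax5, the factor that keeps B cell identity, in 55.6%, 60.8% and 39.1%. The comparison population was the T cells of the same libraries (Cd3e and Cd3g both detected, with the B cell genes and the other excluded genes at 0), 2080, 1205 and 1581 cells with medians of 5519, 6428 and 3866 UMIs. Cd79b was found in 3.35% to 8.63% of them and Pax5 in at most 0.996%. Transcripts of 13 T cell marker genes summed to 265, 205 and 145 CPM in B cells against 6444, 6237 and 5138 CPM in T cells. On the surface, the CD3 tag had a median of 3, 3 and 1 UMIs per B cell and of 117, 129 and 47 per T cell, and 30, 29 and 31 B cells reached the 5th percentile of the T cells. As a share of the cell's own tag UMIs, however, 65.7%, 77.9% and 50.8% of B cells reached that percentile, so the CD3 tag bears on the label by its UMIs alone. The tags held no B cell antibody. B cells carried few tag UMIs, with medians of 61, 59 and 26 over all 11 tags against 1139.5, 1725 and 823 on T cells.

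Outside the rule lay 200, 219 and 564 cells with Cd79a but no Ms4a1 UMI, of which 75.5%, 75.8% and 68.6% held an Ighd UMI. Just inside lay 304, 388 and 611 B cells with a single Ms4a1 UMI, of which 86.2%, 90.2% and 73.2% held one. Fcer2a was found in 67.0%, 48.4% and 36.0% of the cells outside and in 66.4%, 62.9% and 42.7% of those inside, and Cr2 in 22%, 17.8% and 10.8% against 28.0%, 29.6% and 17.7%. All 3 genes were thus at lower shares outside the rule at D5 and D19. These shares were not thinned, and the cells outside were shallower, with medians of 2997, 3221 and 1805 UMIs against 3080.5, 3424 and 1997 inside. At D19, where cells were shallowest, the edge was thus most populated. Cells with Cd79a and Ms4a1 that were left out for an excluded gene numbered 317, 436 and 247, among them 37, 38 and 39 with Mki67 and 6, 2 and 15 with 10 or more Jchain UMIs.

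Maturation was first read from Ighd, Fcer2a and Cr2. The delta heavy chain gene Ighd stood at 745 CPM (725 to 765) at D0, 924 (907 to 941) at D5 and 655 (629 to 682) at D19. The CD23 gene Fcer2a stood at 416 CPM (401 to 431), 351 (340 to 361) and 271 (255 to 289). The CD21 gene Cr2 stood at 147 CPM (139 to 157), 180 (173 to 188) and 114 (103 to 125). Ighd and Cr2 were thus highest at D5 and lowest at D19, while Fcer2a was highest at D0 and lower at each later time, and within each gene no 2 intervals overlapped.

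As log2 ratios, Ighd differed by 0.31 (0.26 to 0.36) between D5 and D0, and D19 lay at −0.19 (−0.26 to −0.11) relative to D0. Fcer2a differed by −0.24 (−0.31 to −0.18) at D5 and by −0.61 (−0.72 to −0.51) at D19 relative to D0. Cr2 differed by 0.29 (0.18 to 0.40) and −0.37 (−0.54 to −0.21). All stayed within a 2-fold change, and no spread between animals is known against which to set them.

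**Figure D1:**
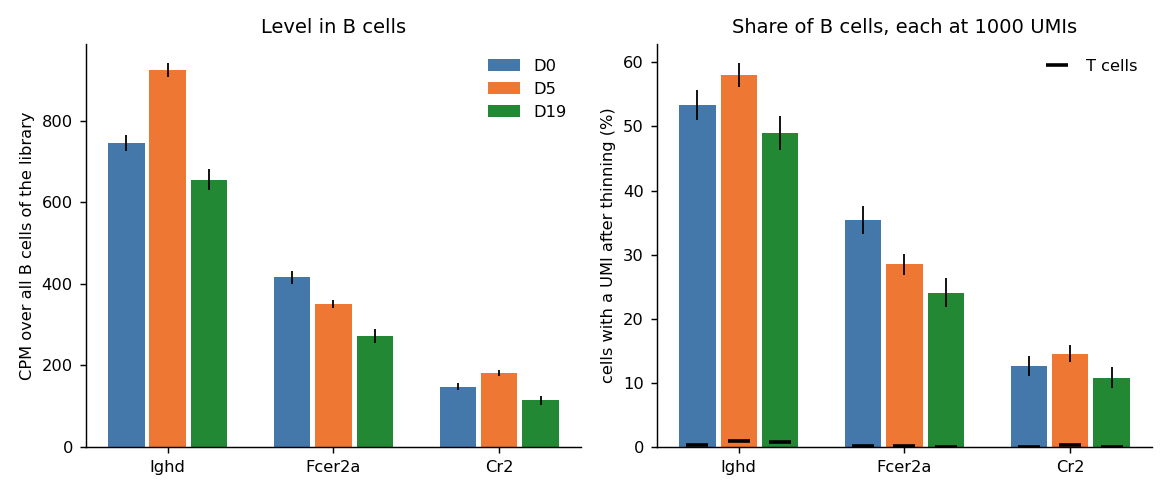
Left, level of Ighd, Fcer2a and Cr2 (CPM over all B cells of a library) at D0, D5 and D19. Right, percentage of B cells with a UMI after thinning to 1000 UMIs, with the share in T cells as a black dash. Error bars are 95% intervals of counting error for 1 library per time point. Ighd and Cr2 peak at D5, Fcer2a declines from 416 to 271 CPM, and the T cell dashes lie near 0.

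Shares of cells kept this order, but the lack of overlap given above is for levels and not for these shares. After thinning, Ighd was detected in 53.4% (51.0 to 55.7) of B cells at D0, in 58.0% (56.2 to 59.9) at D5 and in 49.0% (46.3 to 51.6) at D19. Fcer2a was detected in 35.4%, 28.5% and 24.01%, and Cr2 in 12.6%, 14.6% and 10.7%. In T cells the thinned shares of these genes were between 0 and 0.913%. These T cells were chosen with Cd79a and Ms4a1 at 0, which leaves out T cells holding that RNA of B cells. Their Ighd was also highest at D5, at 3.50, 8.31 and 5.11 CPM, and barcodes of at most 100 UMIs, which hold free RNA, had 157, 257 and 88.8 CPM of it. Read from 8 T cell genes, free RNA made up 2.04%, 2.84% and 2.42% of the B cell UMIs at D0, D5 and D19. With this part subtracted, no difference of Ighd, Fcer2a or Cr2 between libraries changed sign or left its counting interval. The rule took B cells with Cd3e and Cd3g at 0, which leaves out B cells holding that RNA of T cells. The free RNA read from T cell genes can therefore be too low, and this check covers no more than that part. Without thinning the shares were 87.2%, 93.5% and 73.0% for Ighd, 69.9%, 69.3% and 43.9% for Fcer2a and 36.1%, 45.7% and 21.6% for Cr2. At 1000 UMIs per cell, 28.0%, 26.5% and 34.9% of the B cells showed none of the 3 transcripts, which at this depth does not make them immature, and 2.82%, 2.42% and 1.23% showed all of them.

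The mu heavy chain gene Ighm, which immature and naive B cells share, stood at 2449, 1795 and 1516 CPM. Its UMIs outnumbered those of Ighd by 3.29 at D0, 1.94 at D5 and 2.31 at D19. In T cells Ighm was at 213, 174 and 108 CPM. Zfp318, which is needed for the splicing that yields IgD, was at 128, 197 and 151 CPM and so, like Ighd, highest at D5. Cd93, a marker of transitional cells, stood at 9.58, 9.37 and 5.86 CPM. None of the 9 transitional genes tested between D5 and D0, nor of the 8 tested between D19 and D0, was past a log2 difference of 1. Vpreb3 was at 334, 422 and 306 CPM and Cd24a at 287, 223 and 167.

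The other genes of follicular B cells were described with all genes as the background. A gene entered with at least 50 UMIs over both libraries, and it counted as past the fold at a difference of at least 1 in log2 of CPM with 10 added. Between D5 and D0, 23 of 9519 genes were higher (0.242%) and 19 lower (0.200%). Between D19 and D0, 71 of 8381 were higher (0.847%) and 98 lower (1.17%), and between D19 and D5, 45 of 9276 were higher (0.485%) and 28 lower (0.302%). T cells of the same libraries passed the fold in the same direction for 13 of the 23 and 9 of the 19 genes at D5, for 37 of the 71 and 43 of the 98 at D19 against D0, and for 12 of the 45 and 16 of the 28 at D19 against D5. How many of all genes passed the fold in T cells was not counted, so these overlaps have no background and nothing is read from their size. Of the 45 genes higher at D19 than at D5, 21 were pancreas genes, and 17 of these went the other way in T cells, where 1 barcode of D5 held 98.2% to 100% of each gene's UMIs.

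Of 14 follicular maturation genes, 1 was lower at D5 than at D0 and none was higher, with a list median of −0.02 beside 0.03 over all genes. At D19 against D0 the median was −0.42 beside −0.03, with 11 of 14 genes below 0 against 4528 of 8381 over all genes. Klf2, a transcription factor of resting, recirculating lymphocytes, stood at 1519, 706 and 554 CPM, a difference of −1.09 at D5 and −1.44 at D19. Without the heat shock cells described below, Klf2 differed by −0.88 at D5, within the fold, and by −1.21 at D19. In T cells Klf2 differed by −0.84 and −1.02. Ccr7, the chemokine receptor for entry into the node and for the border of the T cell zone, stood at 465, 273 and 210 CPM (−0.74 and −1.11, in T cells −0.58 and −0.63).

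Cd200, which encodes a ligand that restrains myeloid cells, was the follicular list member past the fold upward, and 1 of the 3 above 0 at D19 against D0, at 70.2, 76.1 and 216 CPM. It was 1.50 higher at D19 than at D0, and T cells showed 1.32. The follicle homing receptor gene Cxcr5 (90.4, 78.6 and 63.3 CPM) stayed within the fold, as did the BAFF receptor gene Tnfrsf13c (303, 281 and 210 CPM). Among 14 homing and egress genes tested, Klf2, Ccr7 and the integrin gene Itgb7 were past the fold downward at D19 against D0. Itgb7 stood at 62.8, 47.1 and 18.1 CPM, and at 149, 145 and 67.5 in T cells.

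**Figure D2:**
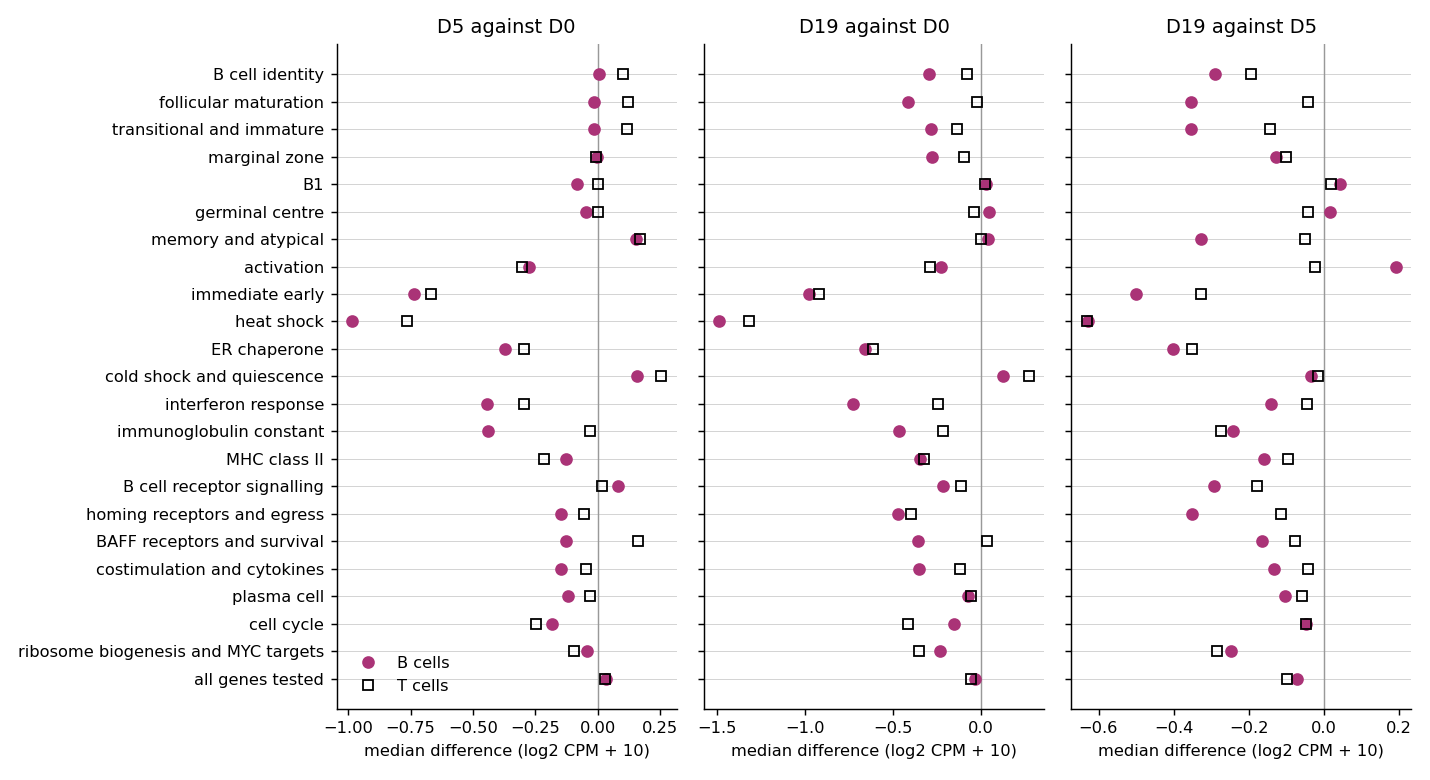
Median difference of each gene list (log2 of CPM with 10 added) for the 3 pairs of time points, in B cells (filled circles) and in T cells of the same libraries (open squares), with all genes tested as the bottom entry. Heat shock, immediate early, interferon and ER chaperone lists lie furthest below 0 for D19 against D0, and T cells lie beside B cells for all of these but the interferon list.

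Of 16 B cell identity genes, none was past the fold in any pair. Their medians were 0.00, −0.30 and −0.29 for D5 against D0, D19 against D0 and D19 against D5, beside 0.03, −0.03 and −0.07 over all genes, with 8, 13 and 14 of the 16 below 0. Over all genes, 4157 of 9519, 4528 of 8381 and 5746 of 9276 lay below 0. The list holds Cd79a and Ms4a1, which the rule asked for, so its counts and medians are not free of the rule. The lists for B1, marginal zone, memory and MHC class II genes had no member past the fold in any of the 3 pairs. Nor had those for germinal centre and plasma cell genes, but the rule left out cells with Mki67 or with 10 or more Jchain UMIs, so nothing is read from these 2 lists. Of 19 genes of B cell receptor signalling, the exchange factor gene Vav1 passed the fold, at 38.9, 38.7 and 12.8 CPM, with T cells at 35.6, 35.5 and 18.8.

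None of 25 activation genes was past the fold upward at D5 or D19 against D0. At D5, 2 were past it downward, the chemokine gene Ccl4 (91.1, 29.6 and 76.4 CPM at the 3 times, −1.35 at D5) and Nr4a1, an early gene of antigen receptor signalling (322 and 156 CPM, −1.00). Without heat shock cells Ccl4 differed by −1.14 and Nr4a1 by −0.97, within the fold. Cd83, a surface activation marker, stood at 677, 349 and 292 CPM and was past the fold downward at D19 against D0 (−1.19). Egr1, another early receptor target, was at 187, 90.1 and 261 CPM. Egr1 and Ccl4 were the 2 activation genes past the fold upward at D19 against D5 (1.44 and 1.13). Some of these values rested on few cells, with 9.19% of the Egr1 UMIs and 9.49% of the Ccl4 UMIs of D19 in 1 cell.

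Many genes past the fold in B cells were within it in T cells, though a gene within the fold can lie close to it. At D5 against D0, T cells shared 13 of 23 higher and 9 of 19 lower genes, and at D19 against D0 37 of 71 and 43 of 98. These counts have no background of all genes in T cells. A few of those not shared are named here, and this difference between the cell types could not be tested either. Zfp36l2, which encodes an RNA-binding protein that favours quiescence, stood at 143, 619 and 282 CPM, 2.04 higher at D5 than at D0 and 1.11 lower again at D19 than at D5 (T cells 0.89 and −0.36). Its thinned share of B cells was 11.4%, 41.7% and 21.9%. Ptpn22, a phosphatase gene that dampens antigen receptor signalling, stood at 21.9, 80.7 and 113 CPM, or 1.51 and 1.95 above D0 (T cells 0.54 and 0.70), with thinned shares of 1.69%, 7.55% and 10.5%. The ubiquitin ligase gene Neurl3 was at 84.5, 212 and 108 CPM, 1.23 above D0 at D5 (T cells 0.29).

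At D5 a single cell held at most 0.486% of the UMIs of Zfp36l2, Ptpn22 or Neurl3, so that their levels did not rest on a few cells. Il12a, which encodes the p35 chain shared by IL-12 and IL-35, was at 21.7 (18.4 to 25.5), 29.3 (26.4 to 32.4) and 56.4 (48.8 to 64.7) CPM, 1.06 higher at D19 than at D0, and at most 0.438 CPM in T cells. Without heat shock cells its difference was 0.93, within the fold. Sesn1, a stress-responsive inhibitor of mTORC1 picked after its values were seen, was at 44.0, 102 and 75.9 CPM with 24.2, 25.8 and 20.9 in T cells.

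**Figure D3:**
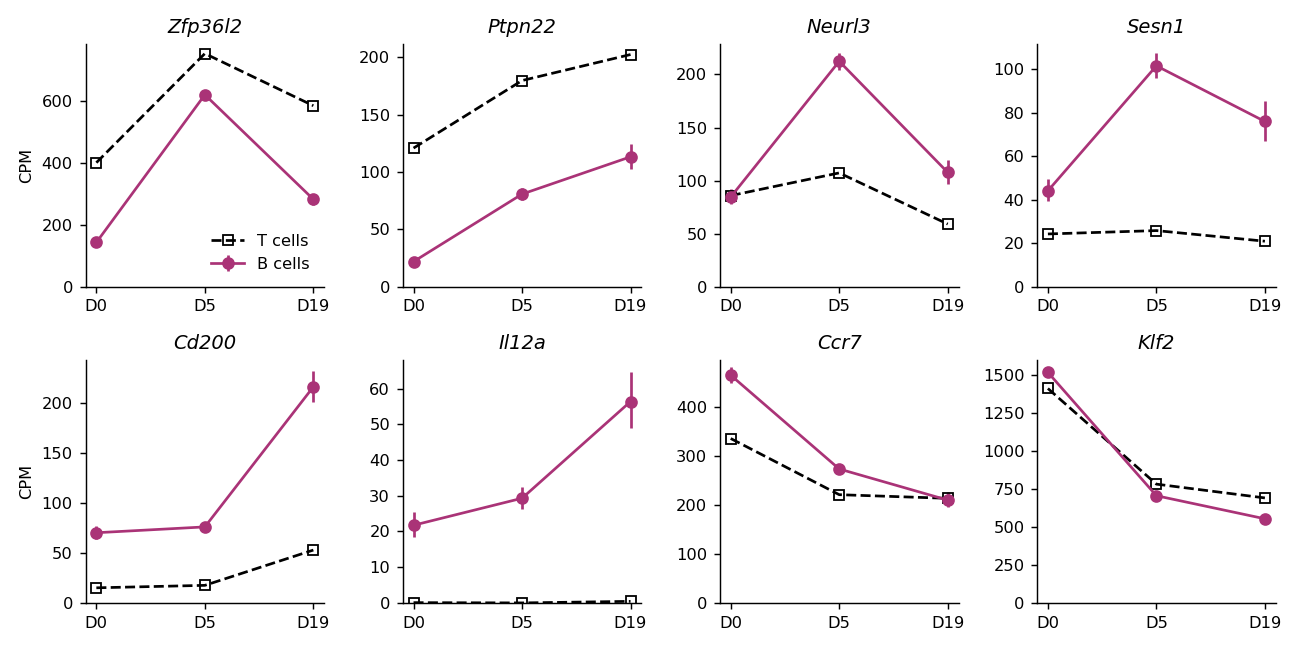
Level (CPM) of 8 genes at D0, D5 and D19 in B cells (filled circles, bars are 95% Poisson intervals) and T cells (open squares). Zfp36l2, Neurl3 and Sesn1 peak at D5 in B cells, Ptpn22 and Il12a are highest at D19, Cd200 is higher at D19 in both cell types, and Ccr7 and Klf2 are highest at D0 in both.

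Other changes ran alike in B and T cells. Rbm3 and Cirbp, cold-inducible RNA-binding protein genes, stood at 396, 814 and 1051 CPM and at 136, 203 and 410 CPM in B cells. T cells had 361, 759 and 1022 CPM of Rbm3 and 83.3, 126 and 291 of Cirbp. Their list of 12 cold shock and quiescence genes went both ways in B cells. Against D0, 1 was past the fold upward and 1 downward at D5, and 3 and 1 at D19, with medians of 0.16 and 0.12. The median of 13 mitochondrial transcripts was 0.83 and 0.97 above D0 at D5 and D19 in B cells and 0.86 and 0.95 in T cells. Gm42418, a transcript that overlaps ribosomal RNA, was at 7093, 30906 and 1372 CPM in B cells, and its differences were 2.12 and −2.36 from D0 in B cells and 2.15 and −2.36 in T cells.

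Heat shock transcripts set D0 apart. Hspa1a stood at 656 CPM (637 to 675) at D0, 24.9 (22.2 to 27.8) at D5 and 0.837 (0.173 to 2.45) at D19, which were 4588, 314 and 3 UMIs. Hspa1b stood at 549, 31.3 and 0.558 CPM. These genes are near-identical copies, so reads may be split between them and their sum is the safer value. Dnajb1, which encodes the HSP40 partner of HSP70, was at 239, 63.3 and 36.8 CPM, and Hsph1, encoding HSP110, at 83.2, 23.97 and 6.42.

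Of the 17 heat shock genes tested, 8 were past the fold downward at D5 against D0 and 15 at D19 against D0, with none upward and list medians of −0.98 and −1.49. In T cells the medians were −0.77 and −1.32. Constitutive members followed, with Hspa8 at 1590, 696 and 320 CPM. Immediate early genes (list medians −0.73 and −0.98, 3 and 7 of 14 past the fold downward) went with them, Jun standing at 697, 301 and 161 CPM. Without the cells highest in Hspa1 transcripts, set apart below as heat shock cells, none of the 14 was past the fold at D5 (median −0.54) and 5 were at D19 (−0.77). Of 16 ER chaperone genes, none was past the fold at D5 and 6 were lower at D19, among them Calr at 316, 242 and 109 CPM.

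The promoters of this group are shown because their genes moved together. Mouse promoter sequences were RefSeq's for GRCm38.p6 (mm10), the stretch before each gene's start, and they were searched on both strands for the core of the heat shock element, GAANNTTC or TTCNNGAA. Of the 18 list genes, 15 had a promoter in the table, and 8 of these held at least 1 match within 250 bases before the start, against 3932 of 27025 genes with a promoter in the table (14.5%). Capitals mark the matches, which may overlap, in the gene's own direction.
Hspa1a, chr17:34972243-34972270, minus strand: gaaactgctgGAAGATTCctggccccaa
Hspa1b, chr17:34959325-34959352, minus strand: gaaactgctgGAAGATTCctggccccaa
Hspe1, chr1:55088049-55088086, plus strand: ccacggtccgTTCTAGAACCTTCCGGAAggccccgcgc
Hspb1, chr5:135887792-135887839, plus strand: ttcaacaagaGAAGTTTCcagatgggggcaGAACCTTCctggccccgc
Hsph1, chr5:149636352-149636379, minus strand: ggtagaatctTTCTCGAAggctcgagaa
The stretches of Hspa1a and Hspa1b are the same bases, 114 to 87 before each start. The stretch of Hspe1 is also the promoter of Hspd1, read from the other strand, and its 3 matches compare with 44 of all genes holding as many (0.163%). Dnajb1 held no match in this window.

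Within D0 the Hspa1 transcripts lay in a part of the B cells. Cells with at least 5 UMIs of Hspa1a and Hspa1b together, called heat shock cells here, numbered 427 of 1775 B cells at D0 (24.1%, 22.1 to 26.1), 36 of 2807 at D5 (1.28%, 0.900 to 1.77) and 0 of 1387 at D19, which allows a share of up to 0.266%. T cells had 297 of 2080 (14.3%), 13 of 1205 (1.08%) and 0 of 1581. None of these shares was thinned, and depth differed between libraries and cell types. The 427 cells held 91.5% of the Hspa1 UMIs of the B cells at D0, and the highest held 96. The class is a range of a count and not a cell type, with 103 B cells of D0 just below its limit (3 or 4 UMIs) and 129 just above it (5 to 7 UMIs). In all, 970 B cells of D0 (54.6%) held no Hspa1 UMI.

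**Figure D4:**
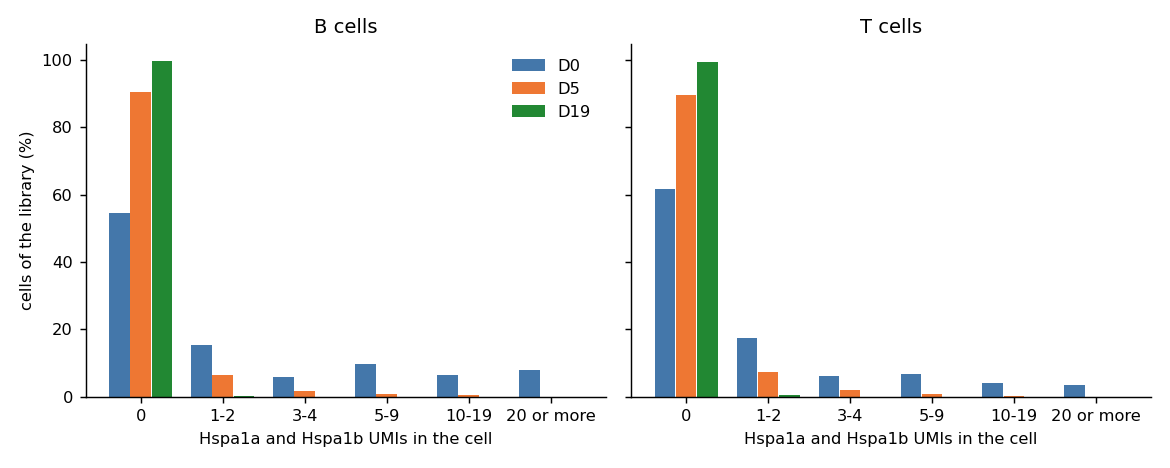
Percentage of B cells (left) and T cells (right) of each library by the number of Hspa1a and Hspa1b UMIs in the cell. D0 has a long tail in both cell types, with 24.1% of B cells and 14.3% of T cells at 5 or more UMIs, and D19 has none there.

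Heat shock cells did not stand apart in depth, with a median of 3493 UMIs against 3295 in the other B cells of D0, nor in mitochondrial share (2.36% against 2.45%). Of 7416 genes, 45 were higher in them by the fold (0.607%) and 1 was lower (0.0135%). Since Hspa1a and Hspa1b chose the cells, their differences of 5.15 and 4.30 are no finding. Dnajb1 stood at 493 CPM in heat shock cells and 148 in the other B cells (1.67), Hsp90aa1 at 1263 and 571 (1.13) and Hspb1 at 60.7 and 5.05 (2.23). The heat shock list counted 5 of 17 higher, with a median of 0.68. Hspa1a and Hspa1b are in both the count and the median, so these are partly set by the choice of cells. The immediate early list counted 4 of 14 with a median of 0.87. Over all genes the median was −0.02.

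Immediate early members in these cells were led by Atf3, a stress-induced repressor, at 279 CPM against 36.9 (2.62), and Jun, at 1242 against 502 (1.29). T cells of D0 split in the same way gave 2.70 for Atf3, 1.35 for Jun and 1.60 for Dnajb1. Some transcripts of other cells were also higher in heat shock cells, with the sum of 10 monocyte and macrophage markers at 243 CPM against 64.3 and of 8 NK cell markers at 215 against 67.0. Dendritic cell markers summed to 410 against 361 CPM and T cell markers to 268 against 263. Sums of plasmacytoid dendritic cell, neutrophil, stromal, endothelial and erythroid markers were lower. Cells with 5 or more UMIs were 5.85% against 2.74% for dendritic cell markers and 3.04% against 1.63% for T cell markers. Lyz2 and Il1b, myeloid genes, were 2.35 and 1.81 higher in heat shock cells. Leaving out B cells with 3 or more UMIs of T cell, NK cell or myeloid markers left 364 heat shock and 1168 other cells. Dendritic cell markers were not used for this. The genes higher by the fold went from 45 of 7416 to 14 of 6729, with Hspa1a and Hspa1b, which chose the cells, still among them. Dnajb1 then differed by 1.82, Hsp90aa1 by 1.19, Hspb1 by 2.35 and Jun by 1.17, and Atf3 by 1.06. The chemokine genes Ccl5 and Ccl3 were also past the fold (1.56 and 1.19).

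Heat shock cells and other B cells of D0 had 412 and 417 CPM of Fcer2a and 150 and 147 of Cr2, with overlapping intervals. Ighd was at 663 CPM (626 to 701) in heat shock cells and 774 (751 to 799) in the others, a difference of −0.22. Klf2 was at 2151 and 1293 CPM (0.73) and Cd83 at 666 and 681. Among the cells with fewer than 3 UMIs of T cell, NK cell or myeloid markers, Ighd was at 795 and 833 CPM, a smaller difference of −0.07. Fcer2a was there at 467 and 447 CPM, Cr2 at 178 and 154, and Klf2 differed by 0.78. Without heat shock cells the D5 to D0 difference of Ighd was 0.25. Hspa1a then stood at 55.8, 12.5 and 0.837 CPM and Hspa8 at 1380, 692 and 320, so that the order of the time points held among the remaining cells, with 4 and 14 of 16 heat shock genes past the fold downward at D5 and D19 against D0. The genes lower at D5 than at D0 went from 19 to 10.

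Interferon-stimulated genes were also highest at D0 in B cells. The list medians were −0.45 at D5 and −0.73 at D19 against D0, with 3 of 28 and 5 of 27 genes past the fold downward and none upward, while T cells had medians of −0.30 and −0.25. Ifit3, which encodes an antiviral RNA-binding protein, stood at 33.2 CPM (29.0 to 37.7), 2.30 (1.54 to 3.31) and 1.95 (0.785 to 4.02), and was detected in 50, 15 and 7 B cells. Isg15, a ubiquitin-like modifier gene, was at 34.9, 8.18 and 6.14 CPM and Ifi27l2a at 518, 234 and 168.

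Few cells held several interferon-stimulated transcripts. Cells with 3 or more UMIs of Ifit1, Ifit2, Ifit3, Isg15 and Irf7 were 47 B cells at D0 (2.65%, 1.95 to 3.51), 16 at D5 (0.570%) and 1 at D19 (0.0721%). In T cells the shares were 4.86%, 2.32% and 3.10%. These are shares at full depth, which differed between libraries and cell types. Thinned to 1000 UMIs, a setting chosen after seeing the data, 3 or more UMIs were found in 1.18%, 0 and 0 of the B cells. In T cells these thinned shares were 0.962%, 0.0830% and 0.190%, so that both cell types were highest at D0. At least 1 UMI of these genes was found in 4.17% (3.29 to 5.21), 2.42% (1.89 to 3.06) and 1.08% (0.607 to 1.78) of the thinned B cells and in 8.70%, 5.89% and 6.51% of the T cells. Ifi27l2a was detected in 30.8% (28.6 to 33.0), 16.8% (15.4 to 18.3) and 11.7% (10.04 to 13.5) of the thinned B cells, against 27.3%, 18.5% and 16.2% of the T cells. Unthinned, it was found in 56.8%, 40.9% and 24.9% of the B cells. Among heat shock cells of D0, 3.98% held 3 or more UMIs of the 5 genes at full depth, and 2.23% among the rest.

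Promoters of these genes are shown for the same reason as above. The core of the interferon-stimulated response element, a pair of GAAA blocks with any pair of bases between them, was searched on both strands. It was found in 13 of the 21 list genes with a promoter in the table, against 936 of the 27025 genes (3.46%).
Ifit3, chr19:34583363-34583426, plus strand: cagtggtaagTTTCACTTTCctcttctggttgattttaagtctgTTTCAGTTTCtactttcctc
Isg15, chr4:156200865-156200906, minus strand: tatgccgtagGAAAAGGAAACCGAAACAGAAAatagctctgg
Capitals mark the matches, which overlap in Isg15. Ifit3 held 2 and Isg15 held 3, and at least 2 were held by 57 of all genes (0.211%).

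B cells without an Ighd UMI were then set against those with one, a split chosen after the values were seen and limited to cells of 2500 or more UMIs to even out depth. Cells without Ighd were 194 of 1605 at D0 (12.1%, 10.5 to 13.8), 161 of 2696 at D5 (5.97%, 5.11 to 6.93) and 94 of 449 at D19 (20.9%, 17.3 to 25.0). At D19 the depth limit kept 449 of 1387 B cells, so this share describes its deepest cells. Median depths were close within a library, at 3470 without and 3456 with Ighd at D0, 3506 and 3938 at D5, and 3150 and 3327 at D19. Of all genes, 23 of 7299 were higher without Ighd at D0 (0.315%) and 11 lower (0.151%), 14 of 8777 higher (0.160%) and 19 lower (0.216%) at D5, and 21 of 3615 higher (0.581%) and 69 lower (1.91%) at D19. Genes of other tissues led the lower ones, 4 globin genes at D0 and pancreatic enzyme genes such as Ctrb1 (−4.76) at D19. The higher ones of D19 also held such genes, among them Apod (6.11), Ccl11 (2.23), Hbb-bt (1.78) and Dcn (1.57), and 4 of 5 erythroid markers were past the fold upward there.

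Of 13 follicular genes tested, 0, 0 and 2 were past the fold downward without Ighd and none upward. By sign alone, 11, 12 and 12 lay below 0 at D0, D5 and D19, with medians of −0.36, −0.37 and −0.36 beside −0.04, −0.08 and −0.11 over all genes. Over all genes, 4126 of 7299, 5412 of 8777 and 2292 of 3615 lay below 0. Fcer2a stood at 276 CPM without and 435 with Ighd at D0, at 250.7 and 356 at D5, and at 120 and 258 at D19. Zfp318 stood at 68.3 and 137, 116 and 202, and 59.9 and 152 CPM. Cr2 differed less, at 106 and 156, 132 and 183, and 105 and 127 CPM. Over all B cells thinned to 1000 UMIs, Fcer2a was detected in 38.0% of those with and 32.4% of those without a thinned Ighd UMI at D0, and Cr2 in 13.4% and 11.6%. At D5 these were 29.6% and 26.9% for Fcer2a and 14.5% and 14.7% for Cr2, and at D19 26.5% and 21.6%, and 10.01% and 11.4%. For Cr2 the thinned shares at D5 and D19 thus did not go with Ighd.

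Of the B1 list genes tested, 2 of 7, 2 of 9 and 0 of 3 were past the fold upward and none downward. By sign, 7, 8 and 3 of them lay above 0, with medians of 0.59, 0.82 and 0.45. Over all genes, 3173 of 7299, 3365 of 8777 and 1323 of 3615 lay above 0. Bhlhe41, a transcription factor needed by B1a cells, stood at 77.4 CPM without and 11.2 with Ighd at D0 (2.05), 45.8 and 8.48 at D5 (1.60) and 52.4 and 23.7 at D19 (0.89). S100a6 stood at 199 and 89.7, 218 and 80.4, and 130 and 92.6 CPM. Outside the B1 list, Mzb1, a chaperone gene of IgM-rich B cells, stood at 560 and 300, 427 and 290, and 409 and 250.7. Mzb1 belongs to the marginal zone and plasma cell lists. The marginal zone list went both ways, with 5 of 9, 6 of 10 and 2 of 7 genes above 0 and medians of 0.13, 0.04 and −0.17. Plac8 was 1.56 higher at D0, at 1142 and 380 CPM, and 0.92 and 0.46 higher at D5 and D19. Apoe, which encodes a lipid carrier and is also a macrophage transcript, was at 458 and 267, 655 and 338, and 741 and 343 CPM.

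Switched isotypes were concentrated in the same cells. Of B cells without Ighd, 5.15%, 5.59% and 6.38% held 3 or more UMIs of switched heavy chain constant genes, against 0.709%, 0.158% and 0.845% with Ighd and 0.344%, 0 and 0 in T cells. These are 10, 9 and 6 cells against 10, 4 and 3. Ighg2b stood at 29.6 CPM without and 4.36 with Ighd at D0 (1.46), 68.8 and 0.942 at D5 (2.85), and 62.4 and 6.96 at D19. Igha stood at 45.5 and 14.7 (1.17), 105 and 4.63 (2.97), and 22.5 and 8.36 CPM. At D19 no switched isotype reached the 50 UMIs asked for, so that none was counted as past the fold there. Ighm was at 2741 and 2397, 1782 and 1792, and 1394 and 1416 CPM. The CD80 tag, an antibody to a ligand found on memory B cells, had medians of 11 and 9, 12 and 10, and 17.5 and 11 UMIs. Without the depth limit, its medians were 9, 10 and 7 over all B cells and 9, 9 and 6 on T cells. Markers of other cells moved unevenly with this split, with Lyz2 at 166 and 38.0 CPM at D0, 35.8 and 153 at D5, and 7.48 and 96.8 at D19. Of the NK cell markers tested, 3 of 4, 7 of 7 and 1 of 1 lay above 0 without Ighd, with 1 past the fold at each time, and their medians were 0.30, 0.65 and 1.05. Over all genes, 3173 of 7299, 3365 of 8777 and 1323 of 3615 lay above 0. Gzma, a granzyme gene, stood at 79.7 and 25.1 CPM at D0 and at 123 and 13.2 at D5. The part of these transcripts in the split was not tested.

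**Figure D5:**
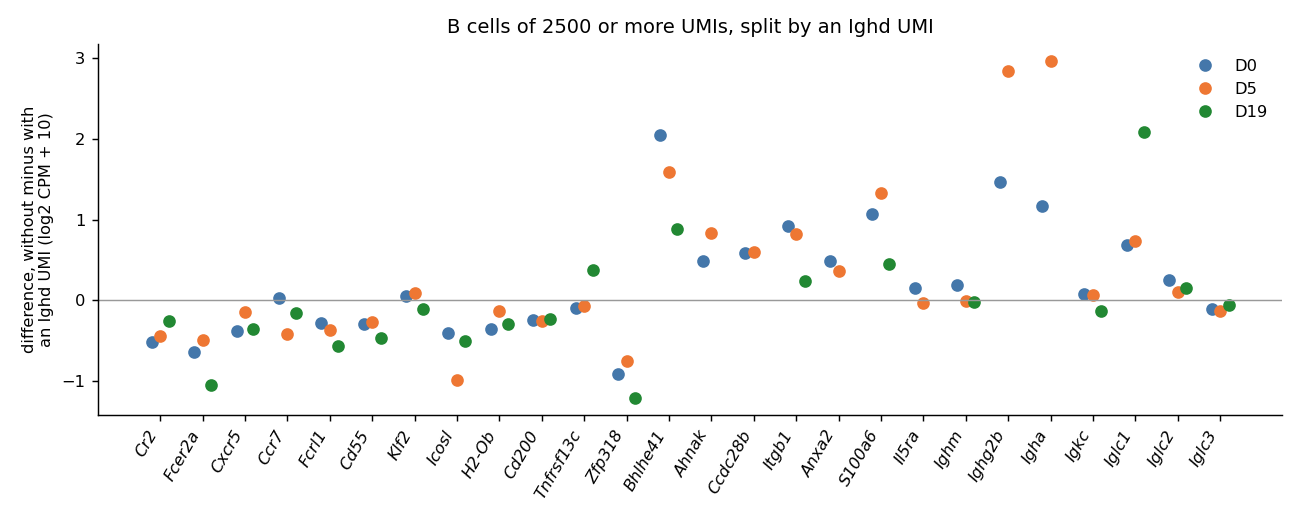
Difference between B cells without and with an Ighd UMI (log2 of CPM with 10 added) for genes of the follicular, B1 and immunoglobulin constant lists, 1 point per library in which the gene was tested. Follicular genes such as Fcer2a and Zfp318 lie below 0 at each time, and Bhlhe41, S100a6 and the switched isotypes Igha and Ighg2b lie above.

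Transcripts of other tissues topped the list of genes higher at D19 and rested on few barcodes. Pancreatic enzyme genes were 21 of the 71 genes higher at D19 than at D0, led by the chymotrypsinogen gene Ctrb1 (728 CPM). Their 9767 UMIs in B cells of D19 lay to 85.2% in 1 barcode, whose total was 11752, and the next highest held 113. With at least 1 such UMI there were 2.31%, 2.89% and 37.1% of the B cells and 3.32%, 3.40% and 37.6% of the T cells. Hemoglobin and other erythroid transcripts summed to 4183, 5518 and 18037 CPM, of which 97.0% to 98.7% lay in 7, 11 and 14 cells. Dcn, a fibroblast gene, stood at 2.00, 70.0 and 177 CPM in 2, 34 and 15 cells. Without the 3 highest cells of each gene and library, 20, 52 and 29 of the genes called higher in the 3 pairs stayed past the fold. Of those called lower, 18, 95 and 26 stayed, so that the genes higher at D19 than at D5 depended on such cells most.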

How the data were processed

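Single-cell RNA and antibody tag libraries were read from the deposited unfiltered matrices, whose values are raw UMI counts per gene and barcode. Per the labels and processing notes, the authors aligned reads to mm10 with Cell Ranger; nothing was normalized before deposit. The 3 LN matrices with 11 tags were used and the other 5 were only counted. B cells were the barcodes meeting the stated rule. Counts were summed over the B cells of a library, scaled to CPM and compared as log2(CPM + 10) among genes with at least 50 UMIs over both libraries, with a log2 difference of 1 as the fold. Shares have exact Clopper-Pearson intervals, sums exact Poisson intervals and ratios exact conditional intervals, at 95% and for counting error only. The B cells of D0, D5 and D19 held 6992896, 12596798 and 3584315 RNA UMIs. Doublets were not called in the main analysis beyond the excluded genes, and the highest Scrublet scores (scanpy 1.11.5) were left out as an alternative. Free RNA was read from barcodes of at most 100 UMIs. Named genes were the members of 31 lists and the 10 largest differences each way, also among genes seen in 5% of B cells. Sesn1 and Apoe were named outside this rule. Members, lists and the D0 heat shock limit were chosen with earlier results of these data known. Programs were Python 3.11.15, numpy 2.4.6, pandas 2.3.3, scipy 1.17.1 and matplotlib 3.10.9, and the calculations were tested on simulated data. The number of mice in a library is not given in the sources used here. Some genes of the lists are not reported here by name.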

Additional observations from a re-analysis of the deposited data

Results flagged for a closer look

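Between D5 and D19, 17 genes were past the fold upward in B cells and downward in T cells of the same libraries. All of them were pancreatic genes, such as Ctrb1, with 70.8% to 89.9% of their D19 B cell UMIs in 1 barcode and 98.2% to 100% of their D5 T cell UMIs in 1 barcode. The share of cells with a UMI of a pancreas gene went from 2.89% to 37.1% in B cells and from 3.40% to 37.6% in T cells, so that the T cell sums and the shares of T cells went opposite ways. The difference between the cell types was not tested.

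In barcodes of at most 100 UMIs, which hold free RNA, the 21 pancreas genes summed to 636 CPM at D0, 864 at D5 and 30356 at D19. That is a signal outside the B cells, above its level in the library without DDC. The same transcripts were seen in 37.1% of B cells and 37.6% of T cells of D19.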

How the results depend on the processing

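No result changed direction among 135 values of Ighd, Fcer2a and Cr2, a number that counts the main setting beside the recomputed ones. Of 1080 differences of other genes counted in the same way, 1 changed sign, Ctrb1 between D5 and D0, to 0.01 without its 3 highest cells. With at least 1500 UMIs per cell the share of B cells was 19.4% at D19, and with at most 5% mitochondrial UMIs 16.7%. Under the same mitochondrial limit the differences of Ighd and Cr2 were −0.32 and −0.53 for D19 against D0 and −0.65 and −0.81 for D19 against D5. Asking for 2 UMIs each of Cd79a and Ms4a1 gave shares of 22.4%, 38.7% and 10.97%, and 28 genes higher at D19 than at D5. Leaving out the highest Scrublet scores gave 46.5% B cells at D5. Without heat shock cells, B cells were 20.6% of D0, 10 genes were lower at D5 than at D0, and Ighd differed by 0.25. As a mean over cells Ighd differed by 0.23 between D5 and D0. Without cells holding 10 or more UMIs of other tissues, a setting chosen after seeing the data, 22 genes were higher at D19 than at D5. Thinned to 1500 UMIs, the shares at D0, D5 and D19 were 66.4%, 72.2% and 61.1% for Ighd, 46.9%, 40.7% and 34.1% for Fcer2a, and 17.7%, 21.4% and 15.3% for Cr2. With 1 CPM added in place of 10, 117 genes were higher and 73 lower at D5 against D0, 217 and 299 at D19 against D0, and 124 and 185 at D19 against D5, since genes of few UMIs then pass the fold. A limit of 3 Hspa1 UMIs gave 29.9% heat shock cells at D0 and 2.96% at D5, and a limit of 10 gave 14.4% and 0.534%. As a share of a cell's tags, 65.7%, 77.9% and 50.8% of B cells reached the CD3 level of T cells, B cells having few tag UMIs. The other 277 recomputed values of the main results stayed within their counting interval, or within 1.5 times for counts of genes. No paired analysis was possible because each time point has 1 library. Leaving out a replicate was likewise not possible. The limits are the single library per time point, the sort, the lower depth of D19, the unknown number of animals, and a rule built on transcripts that shallow cells can miss.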
